A study of Homo sapiens with 4 samples.

Results

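The genes described here are the long-chain acyl-CoA synthetases ACSL1, ACSL3, ACSL4, ACSL5 and ACSL6, with LPCAT3 and GPX4, the enzymes that act on the lipids they supply. All probes whose gene name on the array was exactly one of these symbols were taken, which gave 8 probes for 7 genes (2 for ACSL6 and 1 for each of the others) of 50599 probes carrying 36337 gene names. ACSL4 was chosen because the study lists it as a predicted miR-34a target and because its signal was lower with the miR-34a mimic in these arrays, so its difference is given as a description with no test. ACSL1 was included because it is a reported target of miR-34a, and the other genes because of their place in the same pathway.

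All RNA came from GIST-T1, a human cell line grown from a gastrointestinal stromal tumor (GIST). By nucleofection, 3000000 cells received 100 pmol of either a miR-34a mimic, a synthetic duplex that works as mature miR-34a in the cell, or a mimic negative control, and total RNA was taken after 48 h. Each condition had 2 one-color Cy3 arrays made from 100 ng of RNA, all on 1 slide. Both conditions shared the cell line, the medium and the transfection procedure, and the labels do not say whether the replicates were separate cultures. The mimic supplies the miRNA in excess of what the cells make. Of the markers of GIST cells, 5 of 5 (KIT, ANO1, ETV1, PRKCQ and CD34) were well above background on all 4 arrays. Their log2 differences, mimic minus control, were -0.70 for KIT, -0.06 for ANO1, -0.07 for ETV1, -0.23 for PRKCQ and 0.37 for CD34, and a limma fit with a variance trend called KIT (adjusted p = 0.00705) and CD34 (0.0407) where limma without it called neither (0.0948 and 0.133). Of 6 markers of other cell types, PTPRC, PECAM1 and CDH1 were not tested because they were dim in both conditions, whereas EPCAM and DES were well above background on all 4 arrays and CD3E on 3. Their differences were 0.41, -0.39 and -0.28, and with the trend only DES was called (adjusted p = 0.0346, and 0.0994 without it). The part of these markers in the results below was not tested.

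Long-chain acyl-CoA synthetases join a free fatty acid to coenzyme A, the step that commits it to membrane lipids, storage or oxidation. ACSL4 prefers polyunsaturated substrates such as arachidonic acid, and LPCAT3 places the resulting acyl-CoA into lysophospholipids. Polyunsaturated phospholipids are open to peroxidation, and GPX4 reduces the peroxides. The loss of that defence leads to ferroptosis, an iron-dependent form of cell death in which ACSL4 and LPCAT3 are known to favour death. A miRNA lowers the RNA and the translation of messages that pair with its seed, so the question for these genes was whether their RNA differed once miR-34a was supplied.

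The sequence that sets the pairing is shown first, with the seed, bases 2 to 8 from the 5′ end, in capitals (RefSeq, GRCh38.p14, chromosome 1, minus strand, 9151735 to 9151756, 22 bases).
hsa-miR-34a-5p: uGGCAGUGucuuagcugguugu

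A message pairs with this seed where it holds CACTGCC (opposite bases 2 to 8) or ACTGCCA (opposite bases 2 to 7, followed by an A). These motifs overlap by 6 letters, so a site can hold both. Of the 8 probe sequences, each 60 bases long, 0 held either motif on either strand, where 0.700% of all probes held one on the probe strand and 0.775% on the other. This says only that these letters are not in the probed windows, since the remainder of each transcript was not searched here.

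Values are the log2 processed signal relative to the 75th percentile of its array, and differences are the mimic minus the control on that scale. The signals of different probes are not compared with one another. Probes were tested with limma where both arrays of at least 1 condition were well above background, which 6 of the 8 did, 1 for each gene but ACSL6. Among all 21474 probes tested, 4.8% were lower by more than 1.5-fold and 2.11% were higher by that much. At an adjusted p under 0.05, limma called 0% of the probes, and the smallest adjusted p was 0.0948, while 24.3% had an unadjusted p under 0.05.

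ACSL4, the synthetase of polyunsaturated fatty acids, was lower with the mimic on both arrays. Its probe (NM_004458, from base 4257 of the transcript, hg19 chrX:108885270-108885329, minus strand) read intensities of 69.7 and 71.3 on the mimic arrays against 147 and 141 on the control arrays. On the log2 scale these were -1.06 and -1.03 with the mimic and -0.0012 and -0.013 with the control. Both mimic arrays lay below both control arrays, as they did for 30.1% of all tested probes, and the replicates differed by 0.025 and 0.012. ACSL4 was chosen for this direction, so the separation is a description only. The difference was -1.04, or 2.05-fold lower, which left 48.7% of the control signal. Of all tested probes, 1.43% had a lower difference. All 4 arrays read the probe well above background, with mean spot intensities of 126, 128, 219 and 213 in the same order over local backgrounds of 35 to 38. With normexp background correction, which adds an offset of 50 to every signal, the difference was -0.70. In a whole culture, fewer cells that carry an RNA and less of that RNA per cell cannot be told apart.

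**Figure D1:**
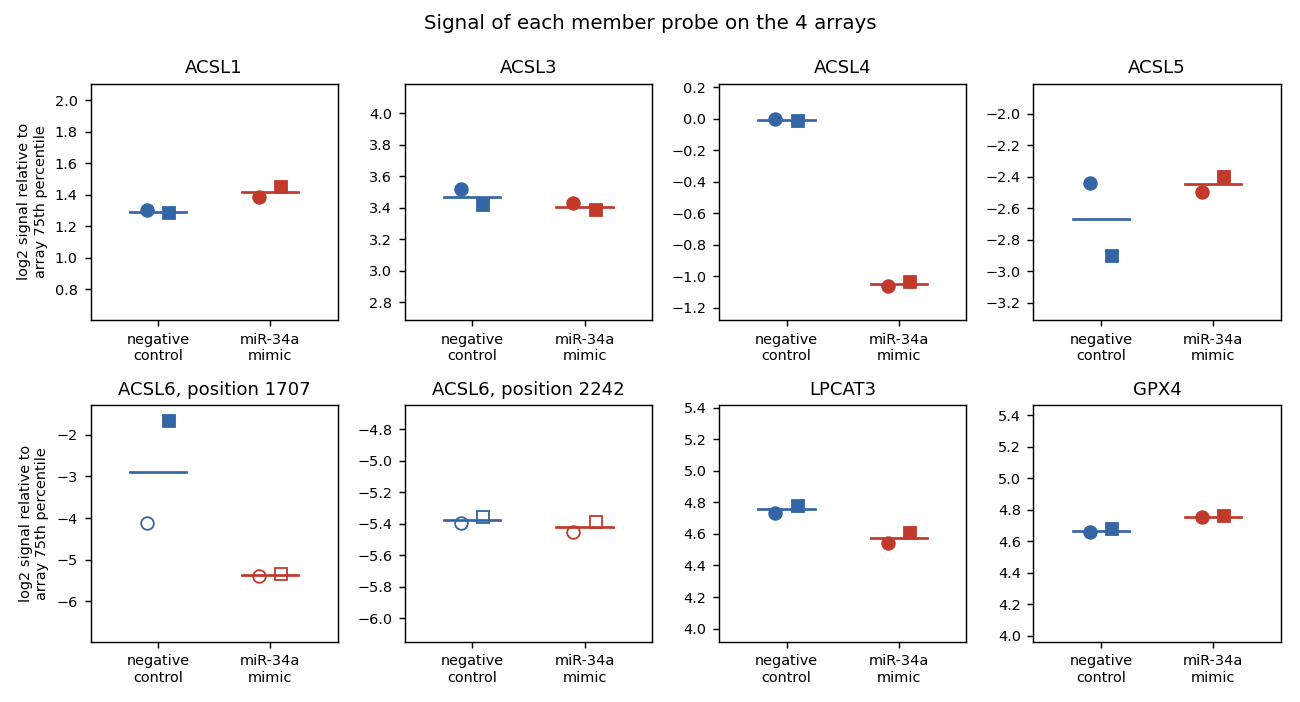
Signal of the 8 member probes on each array, as log2 relative to the array's 75th percentile (vertical axis), for the negative control and the miR-34a mimic, with replicate 1 as circles, replicate 2 as squares, open symbols for readings not well above background, and a bar at the mean of the 2 arrays. The vertical scale differs between panels. The ACSL4 mimic arrays sit at -1.06 and -1.03 and the control arrays near 0, while the other tested genes move by less than 0.25.

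ACSL1, a synthetase of the outer mitochondrial membrane and endoplasmic reticulum that feeds both oxidation and storage, was not lower with the mimic. Its probe (NM_001995, from base 3000, minus strand of hg19 chr4:185676732-185676745, a stretch shorter than the probe) read 379 and 399 with the mimic and 363 and 347 with the control. The log2 signals were 1.39 and 1.45 against 1.30 and 1.28, so that both mimic arrays lay above both control arrays, as they did for 30.4% of all tested probes. The difference was 0.13 ± 0.057 (SE), or 1.09-fold higher, and did not pass the test (limma, adjusted p = 0.281). The 95% interval of the difference, which reflects only the spread between these arrays, ran from -0.04 to 0.29. This probe was spotted 10 times on each array (9 usable spots on control 2), and the spots of an array had an SD between 0.032 and 0.071.

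ACSL3, which is found on the endoplasmic reticulum and on lipid droplets, did not differ beyond the spread between replicates. The probe (NM_004457, from base 3736, hg19 chr2:223807495-223807554, plus strand) read 1560 and 1524 with the mimic and 1685 and 1519 with the control, and the log2 signals of 3.43 and 3.39 overlapped those of 3.52 and 3.41. The difference was -0.06 ± 0.066 (SE), with a 95% interval from -0.25 to 0.13 (limma, adjusted p = 0.596).

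ACSL5, a synthetase best known from intestine and liver, was dim. Its probe (NM_203380, from base 3298, hg19 chr10:114188056-114188115, plus strand) read 25.7 and 27.6 with the mimic and 27.1 and 19.1 with the control, so that control 2 alone stood apart. The log2 signals of -2.50 and -2.40 overlapped those of -2.44 and -2.90. The difference of 0.22 ± 0.183 (SE) did not pass the test (limma, adjusted p = 0.493), its 95% interval from -0.31 to 0.75 was the widest of the family, and without control 2 it was -0.010.

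ACSL6, the synthetase known chiefly from brain and known for its preference for docosahexaenoic acid, could not be tested on either probe. The first (NM_001009185, from base 1707, hg19 chr5:131302164-131302223) read 3.44 and 3.56 with the mimic and 8.49 and 45.0 with the control. Only control 2 was well above background, so that the control mean rests on 1 array. The second (from base 2242, chr5:131289903-131289962) read between 3.31 and 3.50 on all arrays and was well above background on none. The first probe lies 5′ of the second on the transcript, and its sequence, shown because the probes of this gene disagree on control 2, has no stop in at least 1 reading frame.
ACSL6 probe from base 1707: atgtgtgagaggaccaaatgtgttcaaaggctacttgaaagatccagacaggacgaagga

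LPCAT3, the acyltransferase that acts after ACSL4, was 1.14-fold lower with the mimic. Its probe (NM_005768, from base 2232, hg19 chr12:7085352-7085411, minus strand) read 3376 and 3558 with the mimic and 3919 and 3909 with the control. The log2 signals were 4.54 and 4.61 against 4.74 and 4.78, and both mimic arrays lay below both control arrays, as they did for 30.1% of all tested probes. The difference of -0.18 ± 0.060 (SE) had a 95% interval from -0.36 to -0.0087 and an unadjusted limma p of 0.0438, and after adjustment over all probes it did not pass (adjusted p = 0.195). With a variance trend in the model, which called 7.41% of all probes, the adjusted p was 0.071.

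GPX4, the selenoenzyme that reduces phospholipid peroxides, differed by 1.06-fold. The probe (NM_001039848, from base 536, hg19 chr19:1105673-1105732, plus strand) read 3908 and 3948 with the mimic and 3720 and 3635 with the control. The log2 signals of 4.75 and 4.76 lay above those of 4.66 and 4.67, and 30.4% of all tested probes were separated in this direction. The difference of 0.088 ± 0.052 (SE) had a 95% interval from -0.06 to 0.24 and did not pass (limma, adjusted p = 0.366). The replicates of this probe were close, within 0.008 and 0.013, and its sequence is shown as the stretch of the GPX4 message that these values come from.
GPX4 probe from base 536: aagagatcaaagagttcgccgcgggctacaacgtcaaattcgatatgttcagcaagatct

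Set beside one another, ACSL4, which was chosen for its lower signal, was the only one of the 6 tested genes past 1.5-fold. Among all probes tested, 4.8% were lower and 2.11% higher by that much. The other 5 tested genes differed by at most 1.17-fold, 3 of them upward and 2 downward. Their median log2 difference was 0.088, and that of the 6 with ACSL4 was 0.014, against -0.0077 over all probes tested. Of the 5 other than ACSL4, limma called 0 at an adjusted p under 0.05, as it called 0% of all probes. At an unadjusted p under 0.05 there was 1 (LPCAT3), where 24.3% of all probes had such a p. The fit with the variance trend called 0 of the 5, against 7.41% of all probes. The intervals of ACSL1, ACSL3, LPCAT3 and GPX4 all lay within 1.5-fold, whereas that of ACSL5 did not. For a single probe, the smallest p that an exact permutation test (two-sided) can reach with 2 arrays in each condition is 0.33.

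**Figure D2:**
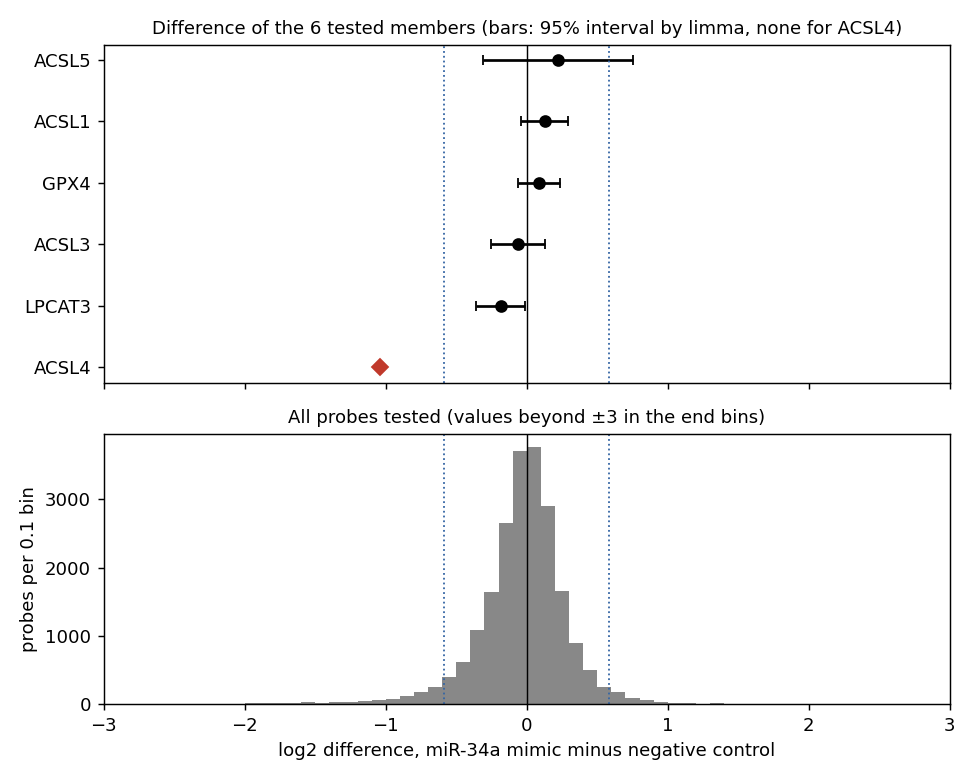
Log2 difference (mimic minus control) of the 6 tested genes with the 95% interval from limma (upper panel) and the number of probes in each bin of the same difference over all 21474 probes tested (lower panel). Dotted lines mark 1.5-fold. ACSL4, drawn as a diamond with no interval because it was chosen by this difference, lies at -1.04 in the lower tail, where 1.43% of the probes had a lower value, and the other genes lie in the bulk.

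The genes around this pathway were grouped in 11 lists of 139 genes, of which 138 were on the array and 110 had a tested probe; the brightest tested probe stands for each gene. The fitted difference was past 1.5-fold downward for 6 of the 110 (5.45%) and upward for 1 (0.909%), where 4.83% of all tested genes were lower and 1.95% higher. Of those 6, only 2 (LCLAT1 and ACBD4) were well above background on all 4 arrays, and the count was 0 with normexp background correction and 3 without mimic replicate 2. ALOX12B, also among the 6, passed the filter through the control arrays only, and its bound of 1.43-fold is under the threshold. The median log2 difference of the 110 genes was 0.053, against -0.0067 over all genes. At an adjusted p under 0.05, limma called 0 of the 110, as it called 0% of all genes, and 28 (25.5%) had an unadjusted p under 0.05, against 24.9% of all genes. With the variance trend, 3 were called lower (2.73%, against 3.96% of all genes) and 11 higher (10%, against 4.28%). The genes named below for that fit were chosen after their values were seen.

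The other acyl-CoA synthetases had 11 of 20 genes tested and a median difference of 0.03. ACSS2, which makes acetyl-CoA from acetate in the cytosol and nucleus, read 504 and 498 with the mimic against 347 and 346 with the control, a difference of 0.52. Its adjusted p was 0.0948 by limma and 0.0149 with the variance trend. ACSS1, its mitochondrial counterpart, had a difference of 0.29 (adjusted p = 0.12 by limma and 0.0424 with the trend), but its second probe had 0.01. ACSM5, a medium-chain enzyme, had a fitted difference of -0.60, which rests on mimic 2, where it was not well above background. Its replicates were far apart, at 32.1 and 13.7 with the mimic and 26.6 and 37.7 with the control, and overlapped (limma, adjusted p = 0.50).

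The acyltransferases that work beside LPCAT3 on lysophospholipids and glycerol phosphate had 16 of 17 genes tested, with differences from -0.66 to 0.74 and a median of -0.027. AGPAT9, now called GPAT3, which starts glycerolipid synthesis, was the one gene of all lists that was more than 1.5-fold higher. It read 422 and 418 with the mimic against 253 and 248 with the control, a difference of 0.74 (adjusted p = 0.0948 by limma and 0.0102 with the trend). LCLAT1, which acylates lysocardiolipin and lysophosphatidylinositol, read 562 and 608 against 910 and 843. Its difference was -0.59, and its second tested probe had -0.75 (adjusted p = 0.0951 by limma and 0.0141 with the trend). LPGAT1, an acyltransferase of lysophosphatidylglycerol, had a difference of -0.47 (adjusted p = 0.119 by limma and 0.0307 with the trend). GPAT2 read 26.8 and 11.2 with the mimic and 27.1 and 27.6 with the control, and its fitted difference of -0.66 rests on mimic 2, where it was not well above background (limma, adjusted p = 0.437). MBOAT7, which also places polyunsaturated chains, had tested probes that disagreed, with differences of -0.03 for the brighter (limma, adjusted p = 0.741) and -0.68 for the other, which alone was past 1.5-fold.

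Among the desaturases and elongases that make polyunsaturated fatty acids, 9 of 10 genes were tested and the median was 0.057. FADS1 and FADS2, the desaturases that make arachidonic acid from linoleic acid, had differences of 0.30 and 0.06 (limma, adjusted p = 0.218 and 0.565). ELOVL5, which lengthens the same substrates, had 0.26 (adjusted p = 0.123 by limma and 0.0385 with the trend), but its second probe had -0.23. ELOVL3, which lengthens saturated chains, read 14.9 and 20.4 with the mimic and 17.8 and 48.7 with the control, so that the conditions overlapped. Its fitted difference of -0.76 includes mimic 1, where it was not well above background (limma, adjusted p = 0.465).

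The acyl-CoA thioesterases and binding proteins, which undo or buffer the product of the synthetases, had 13 of 18 genes tested and a median of -0.078. ACBD4, an acyl-CoA binding protein, was the one past 1.5-fold, reading 35.9 and 32.6 with the mimic against 54.0 and 50.1 with the control, a difference of -0.61 (limma, adjusted p = 0.0954). Its second probe had -0.21. For mitochondrial oxidation, the fate to which ACSL1 directs its product, 17 of 18 genes were tested, 0 were past 1.5-fold and 0 were called with the trend. Their differences ran from -0.25 to 0.23 with a median of 0.057.

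On the side of GPX4, the genes of glutathione supply and recycling had 9 of 9 tested with a median of 0.12, and 0 past 1.5-fold. SLC7A11, the cystine transporter that feeds glutathione synthesis, read 5156 and 5485 with the mimic against 3869 and 3599 with the control, a difference of 0.50 (adjusted p = 0.0954 by limma and 0.0124 with the trend). The ligase subunits GCLC and GCLM had differences of 0.11 and 0.17 (limma, adjusted p = 0.398 and 0.282). Of the other glutathione peroxidases, 3 of 7 were tested. GPX8, an enzyme of the endoplasmic reticulum, had a difference of 0.39 (adjusted p = 0.0955 by limma and 0.0174 with the trend). GPX1 and GPX3 had 0.086 and 0.16 (limma, adjusted p = 0.426 and 0.198), and neither was called with the trend. Selenoprotein synthesis, which GPX4 depends on, had 7 of 7 genes tested, 0 past 1.5-fold and a median of 0.066.

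The other lipid peroxide defences and regulators of ferroptosis had 13 of 14 genes tested, 0 past 1.5-fold and a median of 0.10. GCH1, which starts the synthesis of the antioxidant tetrahydrobiopterin, read low, at 26.5 and 26.2 with the mimic against 35.3 and 36.7 with the control. Its difference of -0.46 was the largest of this list (adjusted p = 0.0954 by limma and 0.197 with the trend), and its second probe had -0.54. KEAP1, the adaptor that leads NRF2 to degradation, had a difference of 0.28 (adjusted p = 0.12 by limma and 0.0264 with the trend). NFE2L2, which encodes NRF2, was not tested because its probe was dim in both conditions. AIFM2, which keeps coenzyme Q reduced, had 0.24 (limma, adjusted p = 0.19). POR had the highest difference of this list, at 0.41 (limma, adjusted p = 0.338), and its second probe had 0.15. Of the 13 tested genes, 7 had a positive difference and 6 a negative one. Of the lipoxygenases and cyclooxygenases, which oxidize polyunsaturated fatty acids enzymatically, 2 of 8 were tested. ALOX12B, the epidermal lipoxygenase, was well above background on the control arrays only, at 23.1 and 20.1 against 11.04 and 3.52 with the mimic. It passed the filter through the control arrays alone, so its lower signal with the mimic is a description only. Set against the lowest signal that counted as above background, its control mean was 1.43-fold higher. PTGS2 had -0.14.

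Iron handling had 10 of 11 genes tested, 0 past 1.5-fold and a median of 0.067. With the variance trend, 4 of the 10 were called higher and 1 lower, where 4.28% of all tested genes were called higher and 3.96% lower. Without the trend, limma called 0 of the 10. HMOX1, which releases iron from heme, read 9293 and 9352 with the mimic against 6809 and 6484 with the control, a difference of 0.48 (adjusted p = 0.0948 by limma and 0.0102 with the trend). SLC40A1, the iron exporter ferroportin, had 0.47 (adjusted p = 0.0954 by limma and 0.018 with the trend). TFRC, the transferrin receptor, and FTL, the ferritin light chain, each had 0.31 (adjusted p = 0.109 and 0.11 by limma, and 0.0195 and 0.0205 with the trend). SLC39A14, an importer of iron and zinc, had -0.38 (adjusted p = 0.0954 by limma and 0.0147 with the trend). The ferritin heavy chain FTH1 had -0.17.

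**Figure D3:**
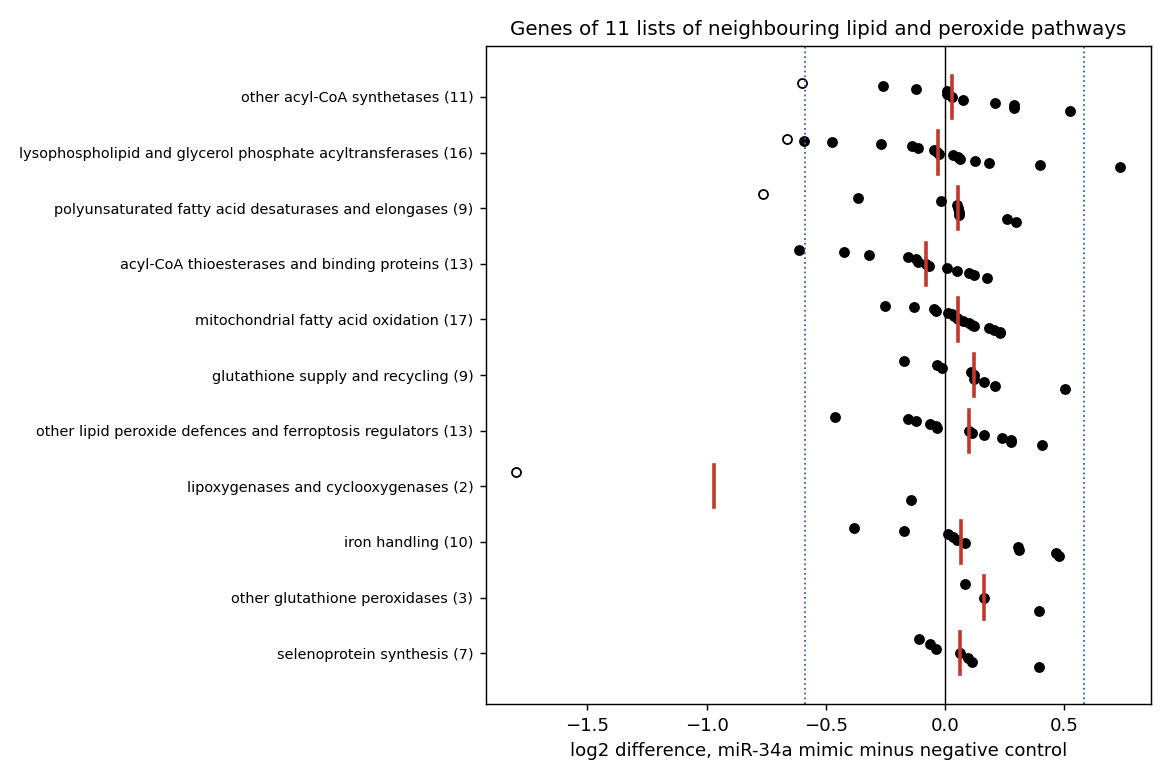
Log2 difference (mimic minus control, horizontal axis) of each tested gene in the 11 lists, with the number tested in brackets. Open symbols are genes not well above background on all 4 arrays, red bars are list medians, and dotted lines mark 1.5-fold. AGPAT9 at 0.74 is the one point beyond the upper line, and 6 points lie beyond the lower line (4 of them open). The point at -1.80 is ALOX12B, which passed the filter through the control arrays only and has a bound of 1.43-fold.

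Among the 20068 probes detected above background on every array, the signals nearest to those of ACSL4 over the 4 arrays, after centring each probe, belonged to FUT1, C6orf115 (now ABRACL), GDF15, FOXN2 and RDH11. Their Euclidean distances on the log2 scale ran from 0.0223 to 0.0548, and their differences from -1.07 to -0.999. FUT1 is a fucosyltransferase, GDF15 a secreted protein of the TGF-beta family, FOXN2 a forkhead factor and RDH11 a retinal reductase. Since 4 arrays in 2 conditions fix little beyond the size of the difference, the likeness is a description only.

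The differences of the 6 tested genes were also computed under 13 other settings of the processing. The filters, the replicate block, the variance trend and the t-test per probe cannot change a difference, so these settings repeat the reported values. ACSL4, which was chosen for its lower signal, ranged from -1.05 to -0.70 and was beyond 1.5-fold in each. ACSL1 ranged from 0.095 to 0.16, GPX4 from 0.080 to 0.13, ACSL3 from -0.11 to -0.0085 and LPCAT3 from -0.22 to -0.15, with the same sign in each, whereas ACSL5 ranged from -0.010 to 0.45. The lowest adjusted p over these settings was 0.189 for ACSL1, 0.486 for ACSL3, 0.341 for ACSL5, 0.159 for GPX4 and 0.071 for LPCAT3.

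**Figure D4:**
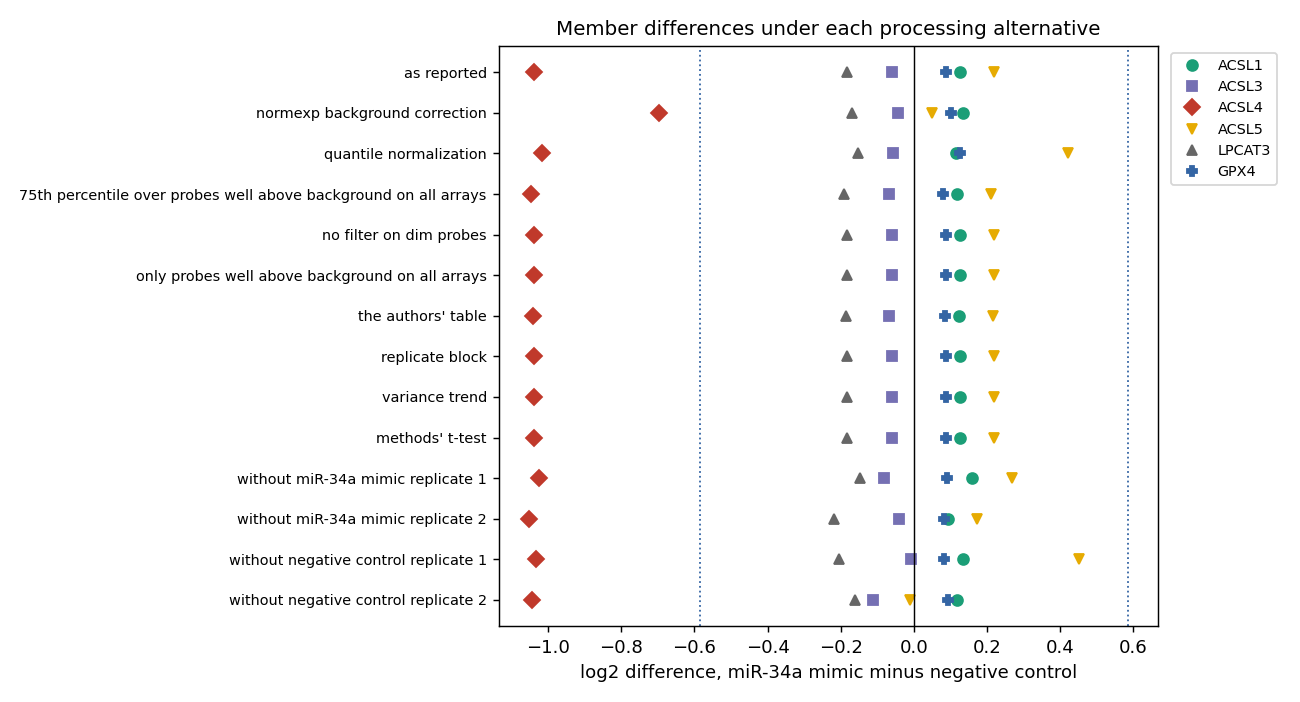
Log2 difference (mimic minus control, horizontal axis) of the 6 tested genes under the reported processing and 13 alternatives (vertical axis), with dotted lines at 1.5-fold. ACSL4 lies left of the lower line in every row, at -0.70 with normexp background correction, and ACSL5 moves most of the others, from -0.010 to 0.45. The rows for the filters, the replicate block, the variance trend and the t-test cannot differ from the reported one.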

How the data were processed

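RNA from GIST-T1 cells was measured on 4 one-color Agilent arrays. The authors deposited each array's spot intensity values from Agilent Feature Extraction 10.7 (10.7.3.1 per the file headers), background-subtracted and detrended within the array but not scaled between arrays, and a table of the same processed intensity values, within 0.5% of them. Conditions and replicates follow the labels. Control spots and outlier-flagged spots (293 to 424 per array) were left out, 0 were saturated, and spots of a probe were averaged. Log2 processed signal was shifted by the array's 75th percentile. Tests used limma 3.58.1 in R 4.3.3 (data.table package, version 1.17.8) with Benjamini-Hochberg adjustment over the 21474 probes (16192 genes) detected above background on each array of 1 condition or of both, and were tested on simulated data. The replicate difference had an SD of 0.337 (mimic) and 0.29 (control). P-values measure only the spread between these arrays. Slide and scan were shared, so neither could be a block. The 1.5-fold threshold is the study's, whose methods name neither scaling nor filter.

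The alternatives tried were quantile normalization, normexp (offset 50), a percentile over detected probes, 2 other filters, the authors' table, the replicate block, a variance trend, a t-test per probe and leaving out each array. The study's methods name t-tests for continuous variables but give no test for the arrays. Members, gene lists, tests and alternatives were chosen with earlier results of these data known. Named were all member probes, list genes past adjusted p 0.05, up to 3 detected list genes per direction past 1.5-fold, and the 5 probes nearest to ACSL4; other named list genes were chosen after their values were seen. All 7 symbols were found in a RefSeq gene table. Positions are hg19, from the array annotation.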

Additional observations from a re-analysis of the deposited data

How the results depend on the processing

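The number of arrays limits the precision, and both ACSL6 probes were too dim to test. Without a filter on dim probes, 2 member probes were lower by more than 1.5-fold instead of 1 (the ACSL6 probe from base 1707 was added), and of the list genes 13 were lower and 6 higher instead of 6 and 1. The ACSL4 difference was -0.70 with normexp background correction and -1.02 with quantile normalization. The list genes lower by more than 1.5-fold numbered 0 with normexp, 3 with quantile normalization and 2 with detection required on every array. Leaving out each array in turn gave ACSL1 0.095 to 0.16, ACSL3 -0.11 to -0.0085, ACSL4 -1.05 to -1.03, ACSL5 -0.010 (without negative control 2, reversed) to 0.45 (without negative control 1), LPCAT3 -0.22 to -0.15 and GPX4 0.081 to 0.094, and 3 (without mimic 2) to 5 list genes lower and 1 to 2 higher (2 without mimic 1 or control 1). Over all probes, those lower and higher by more than 1.5-fold numbered 1030 and 453, against 185 and 68 with normexp, 775 and 702 with quantile normalization, 6823 and 2070 without a filter and 512 and 285 with detection on every array. At an adjusted p under 0.05, limma called 0 probes, 875 with normexp and 1591 with the variance trend, and the t-test per probe called 1.

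The deviations of same-numbered arrays from their group means had a correlation of -0.028 over the probes tested. This describes the signals only and cannot show whether arrays of the same number were prepared together. With the replicate number as a block, the ACSL4 difference was -1.04, and 1 member probe, 6 lower and 1 higher list genes were past 1.5-fold. These values equal those without the block by design, since both conditions hold both replicate numbers, so they are no check. With the block 0 probes were called, as without it. The causes of the changes between settings were not tested.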
